A study of Arabidopsis thaliana with 6 samples.

Results

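MicroRNA (miRNA) loci encode hairpin RNAs from which short regulatory RNAs are cut. The TAIR10.1 annotation of Arabidopsis thaliana holds 326 loci of the miRNA class on its 5 nuclear chromosomes. Described here are 307 of them, chosen by their annotation alone: every locus except the 19 loci of the MIR156, MIR165 and MIR166 families. They fall into 212 families by family number, of which 46 have 2 or more loci. Trimethylation of histone H3 at lysine 27 (H3K27me3) over these loci was measured by ChIP-seq, that is, chromatin immunoprecipitation followed by sequencing, with an antibody against the mark. The material was whole seedlings 14 days old of wild-type Col (wt) and of brm, which carries brm-1, a null T-DNA allele of BRAHMA in the Col background. BRAHMA (BRM) is an ATPase that moves nucleosomes as part of SWI/SNF complexes. Per genotype there were 2 H3K27me3 libraries, described by the study as independent biological samples, and 1 input library of sonicated chromatin without antibody. All 4 H3K27me3 libraries came from mixed tissues, so fewer marked cells and less mark per cell cannot be told apart.

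A plant miRNA gene is transcribed by RNA polymerase II like a protein-coding gene, its hairpin is cut by DICER-LIKE1 in the nucleus, and the mature miRNA guides an ARGONAUTE protein to complementary messenger RNAs. Old families such as miR159, miR160, miR164, miR167, miR172, miR319 and miR396 act mostly on transcription factors that pattern leaves, roots and flowers, and others, such as miR395, miR398 and miR399, act on sulphate, copper and phosphate supply. H3K27me3 is written by Polycomb repressive complex 2 and is found over genes that are silent in at least part of the cells. Members of 1 miRNA family make nearly the same mature RNA from separate loci, so the mark can differ between loci whose products are alike.

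The following mature sequences, read from the TAIR10.1 genome at the coordinates of its RefSeq annotation, belong to the loci whose H3K27me3 differed between the genotypes when duplicate reads were counted once, and to loci marked in only 1 genotype. They are written 5′ to 3′ with the seed, bases 2 to 8, in capitals.
miR5664 (higher in brm): aUAGUCAAuuuuaucggucug
miR5026 (higher in brm): aCUCAUAAgaucgugacacgu
miR850 (higher in brm): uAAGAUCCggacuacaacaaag
miR863-5p (higher in brm): uUAUGUCUuguugaucucaau
miR863-3p (higher in brm): uUGAGAGCaacaagacauaau
miR167c-5p (higher in brm): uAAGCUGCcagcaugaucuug
miR868-5p (lower in brm): uCAUGUCGuaauaguagucac
miR868-3p (lower in brm): cUUCUUAAgugcugauaaugc
miR168b-5p (lower in brm, marked in wt): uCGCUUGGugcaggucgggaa
miR5012 (lower in brm, marked in wt): uUUUACUGcuacuuguguucc
miR399e (lower in brm): uGCCAAAGgagauuugccucg
miR395f (marked in wt): cUGAAGUGuuuggggggacuc
miR866-3p (marked in wt): aCAAAAUCcgucuuugaaga
miR393a-5p (marked in brm): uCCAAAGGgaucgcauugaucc
miR163 (marked in brm): uUGAAGAGgacuuggaacuucgau
miR171b-3p (marked in brm): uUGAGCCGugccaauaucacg
miR167a-5p (marked in brm): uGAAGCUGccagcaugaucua

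The next sequences, chosen after the values were seen, come from families in which loci with the same seed carried very different amounts of the mark.
miR172a: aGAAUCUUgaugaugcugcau
miR172b-3p: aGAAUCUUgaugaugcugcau
miR172c: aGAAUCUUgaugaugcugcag
miR172d-3p: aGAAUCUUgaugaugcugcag
miR172e-3p: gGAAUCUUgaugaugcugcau
miR159a: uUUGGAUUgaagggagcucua
miR159b-3p: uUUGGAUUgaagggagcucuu
miR159c: uUUGGAUUgaagggagcuccu
miR167b: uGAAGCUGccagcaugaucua
miR167d: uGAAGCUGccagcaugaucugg
The seed GAAUCUU is shared by all 5 MIR172 loci and UUGGAUU by all 3 MIR159 loci. MIR167a, MIR167b and MIR167d share GAAGCUG, whereas the annotated 5p RNA of MIR167c has the seed AAGCUGC. None of the seeds of MIR5664, MIR5026, MIR850, MIR863, MIR868 and MIR5012 occurred at another of the 307 loci.

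Reads were counted over each locus with 500 bp on both sides, since the loci are short (median 150 bp, from 59 to 689 bp), and are given as reads per 1000000 reads of the library (RPM). The H3K27me3 libraries held 8408612 to 9593473 uniquely mapped reads and the inputs 5676681 and 6342835. Only 27.9% and 23.4% of the reads in the wt H3K27me3 libraries and 28.3% and 38.2% in the brm ones lay at distinct positions. The inputs had 68.9% (wt) and 80.0% (brm). Counts of all reads and counts of 1 read per position and strand (distinct reads) are therefore both given. The latter are scaled to all distinct reads of the library (distinct RPM). Both brm shares were above both wt shares, and whether this affected the fits on distinct reads was not tested. The median locus held 35 to 48 reads and 9 to 14 distinct reads per H3K27me3 library. A window held only uniquely mappable 37-mers, the read length, at 177 loci, and at 12 loci fewer than 50% of its 37-mers were unique (lowest 7.2%). The windows of 43 loci overlapped the window of another locus, so such neighbours shared reads.

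To ask where miRNA loci carry the mark, H3K27me3 regions found in both libraries of a genotype were intersected with the loci, and a locus was called marked when regions covered at least 50% of it. In wt 107 of the 307 loci (34.9%) were marked and in brm 110 (35.8%). The same rule gave 19.9% (wt) and 21.3% (brm) over all annotated genes, and 21.9% and 23.2% over protein-coding genes. Regions covered 16.6% of the genome in wt and 18.7% in brm. A short locus reaches 50% coverage more easily than a long gene, and the differences between these shares were not tested. The marks of the genotypes largely coincided: 99 loci were marked in both, 8 in wt only, 11 in brm only and 189 in neither. In wt, the H3K27me3 level at loci marked in both genotypes had a median of 36.97 RPM per kb, 4.52 times the input at the median locus. Loci marked in neither had a median of 1.22 RPM per kb, 0.171 times the input.

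Taken over all families, loci away from protein-coding genes had the highest share of marked loci, but 43 of the 52 loci of the development families, described next, were among them. For the 220 loci in no list the order was the opposite, with 22.4% of 85 loci apart from genes marked in wt and 27.4% of the other 135. None of these differences was tested. Of 150 loci with no protein-coding gene within 500 bp, 41.3% carried the mark in wt and 44.0% in brm. The 72 loci that neighboured such a gene within 500 bp without overlap had 38.9% and 36.1%. The share fell to 23.3% in both genotypes for the 30 loci that overlapped a gene on the opposite strand, and to 18.2% and 20.0% for the 55 that overlapped one on the same strand. Where a marked locus overlapped or neighboured a gene, the gene was often marked as well, in 29 of 45 cases in wt, whereas 4 of the 112 unmarked loci in such positions lay at a marked gene. The wt regions that covered marked loci had a median length of 5000 bp (200 to 22000 bp), and 27 of the 107 touched no protein-coding gene. Of the 62 marked loci apart from genes, 23 lay in a region of this kind.

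Marking also differed by what the families are known to regulate. Families with targets in development were marked at 35 of 52 loci in wt (67.3%) and 40 in brm (76.9%), with a median of 27.4 RPM per kb in wt. Families that act in nutrient and copper supply were marked at 13 of 23 loci in wt and 11 in brm (median 12.3 RPM per kb). The loci that regulate the small RNA machinery itself (MIR162 against DCL1, MIR168 against AGO1 and MIR403 against AGO2) stood at the other end, with 1 of 5 marked in wt and 0 of 5 in brm, and a median of 1.29 RPM per kb. Families that regulate PPR, NB-LRR or MYB genes or trigger secondary small RNAs had 2 of 7 loci marked in both genotypes. The remaining 220 loci were marked at 25.5% in wt and 25.9% in brm (median 2.52 RPM per kb). The order was similar among loci apart from protein-coding genes alone, where 33 of 43 development loci, 8 of 14 nutrient loci and 19 of 85 loci in no list were marked in wt. It was not similar among loci that overlapped or neighboured a gene. There, 2 of 9 development loci (22.2%), 5 of 9 nutrient loci (55.6%) and 27.4% of 135 loci in no list were marked in wt. These differences between lists were not tested. The chart of marked shares gives both groupings.

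**Figure D1:**
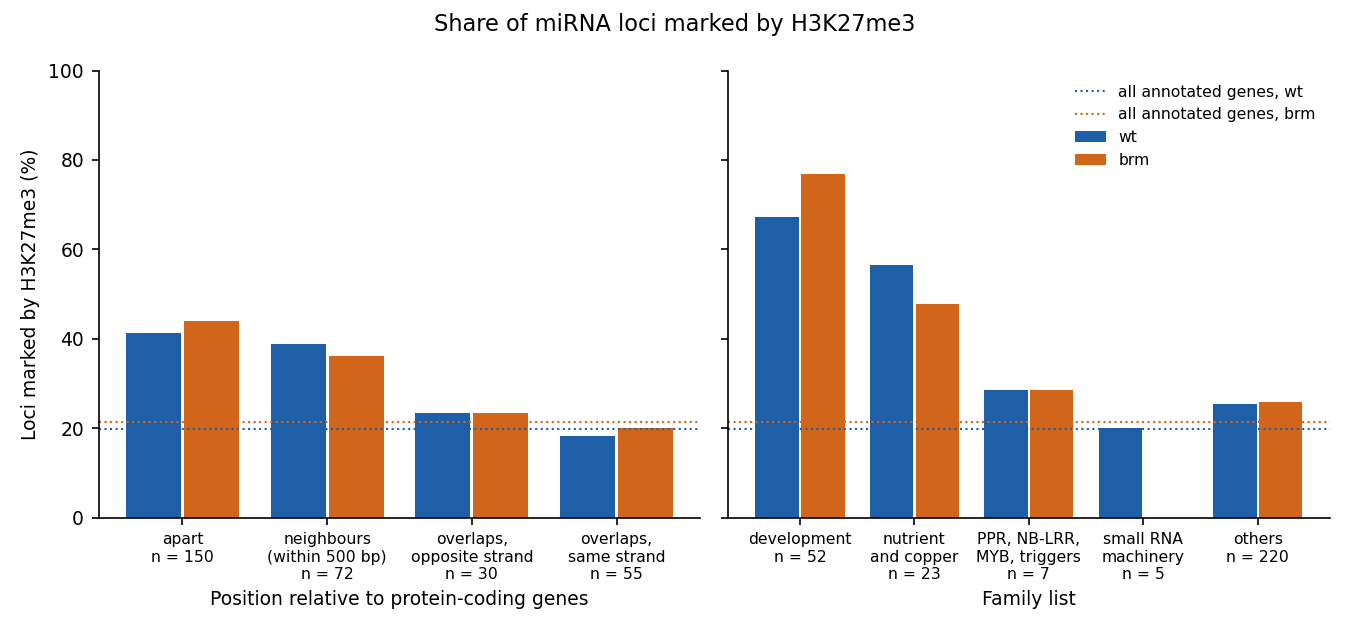
Percentage of miRNA loci covered to at least 50% by H3K27me3 regions in wt (blue) and brm (orange), by position relative to protein-coding genes (left) and by family list (right); n is the number of loci and dotted lines are the shares of all annotated genes (19.9% in wt, 21.3% in brm). Development loci reached 67.3% in wt and 76.9% in brm, and loci that overlap a gene on the same strand 18.2% and 20.0%.

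Around marked loci the signal was highest at or near the hairpin. Over the 60 loci apart from protein-coding genes and marked in both genotypes, the central 200 bp held 60.0 and 52.4 RPM per kb in the wt libraries and 51.7 and 53.7 in the brm libraries. Between 1 and 2 kb upstream the same loci held 30.0 and 27.9 in wt and 29.1 and 31.0 in brm, and between 1 and 2 kb downstream 28.8 and 25.7 in wt and 24.9 and 26.2 in brm. All 4 libraries were thus higher in the central 200 bp than at 1 to 2 kb, and the genotypes overlapped there. The highest bin of 100 bp was centred 50 bp from the hairpin centre in both wt libraries and in brm replicate 2, and 150 bp upstream of it in brm replicate 1. Inputs were flat at 7.63 and 7.90 RPM per kb in the central 200 bp. At the 82 unmarked loci apart from genes, the H3K27me3 libraries held 2.52 to 3.82 RPM per kb at the centre, below the inputs at 7.67 and 8.02. The loci had been sorted by marking over the hairpin, so the height at the centre is a description.

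**Figure D2:**
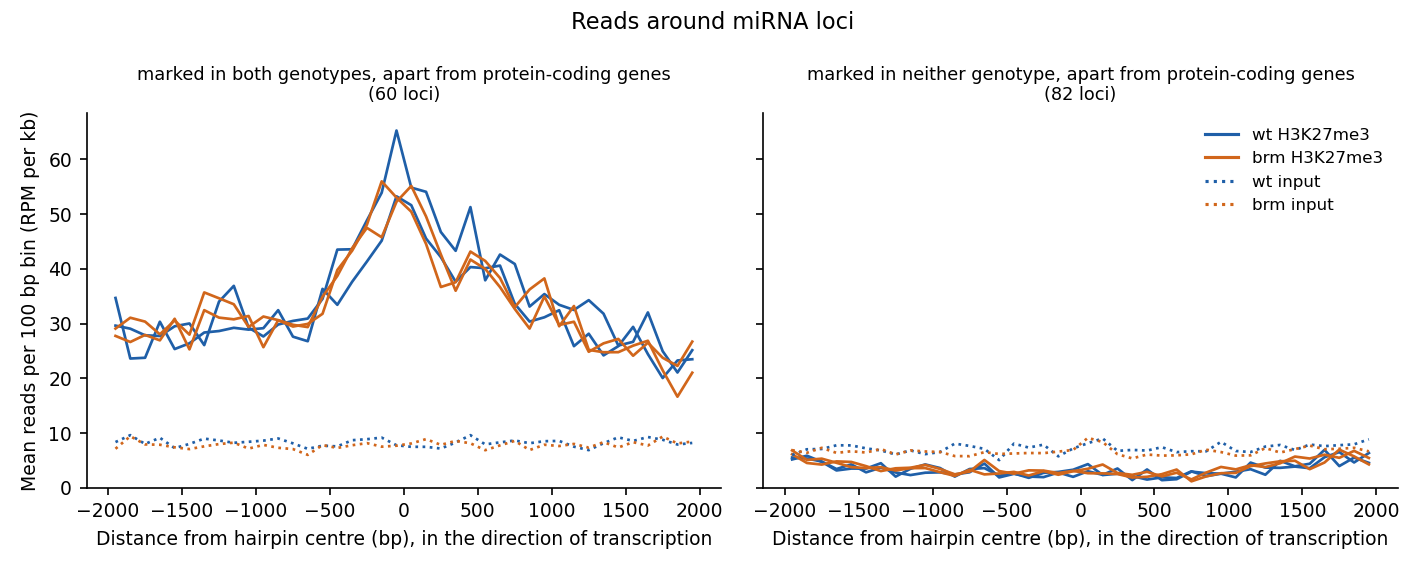
Mean reads per bin of 100 bp (RPM per kb) within 2000 bp of the hairpin centre for miRNA loci apart from protein-coding genes, marked in both genotypes (left, 60 loci) or in neither (right, 82 loci); each line is 1 library (solid, H3K27me3; dotted, input). The 4 H3K27me3 lines peak in bins centred within 150 bp of the hairpin centre at 53.2 to 65.2 RPM per kb on the left and run below the inputs near the hairpin on the right.

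The 6 most strongly marked loci, by wt level per kb, were MIR5015, MIR157d, MIR319a, MIR394a, MIR160a and MIR169e. MIR5015, which lies 67 bp from NF-YC7, a gene for a nuclear factor Y subunit, had 135 and 181 RPM in wt and 116 and 129.5 in brm, against inputs of 15.1 and 10.6. MIR157d, whose product acts on SPL transcription factors, had 134 and 101 RPM in wt and 93.4 and 81.5 in brm. In both loci each brm library was below each wt library, yet neither passed the edgeR test on all reads that is set out with the comparison of genotypes (adjusted p = 0.525 and 0.463). MIR394a, which targets the F-box gene LCR, had 105 and 97.7 RPM in wt and 87.0 and 92.9 in brm. MIR169e, of the family that targets NF-YA genes, had 115 and 103 RPM in wt and 78.4 and 89.6 in brm. Each wt library was again above each brm library at both loci, with adjusted p = 0.837 and 0.513 in edgeR. The loci were ranked by their wt level, which by itself favours wt above brm, so this order cannot be read as a loss in brm. Non-overlap of 2 against 2 libraries is also common without any difference, here and at the loci below. With the input as offset the fitted sign turned at MIR5015 (0.14) and MIR157d (0.11), and MIR5015 was 10.4 times its input in wt and 11.6 times in brm. MIR5015 was called in 2 of 22 alternatives, each with 1 library left out, and MIR157d in 1 of 22, without wt replicate 2. Without wt replicate 1, the log2 fold change of MIR5015 was -0.56.

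Within families the level of the mark varied widely. Of the 46 families with at least 2 loci, 12 had every locus marked in wt, 17 had none and 17 were mixed. The MIR319 loci, which restrain TCP genes of leaf growth, were all marked. MIR319a had 108 and 109.6 RPM in wt and 97.9 and 112 in brm. MIR319b had 79.2 and 80.7 RPM in wt and 77.9 and 82.4 in brm, and MIR319c 64.1 and 60.8 in wt and 81.9 and 60.7 in brm. The genotypes overlapped at each of the 3. MIR319a was called lower with the input as offset (log2 fold change -0.75, adjusted p = 0.0106), where the input was 7.73 RPM in wt and 12.9 in brm. That offset takes the 1 input library per genotype as exact, so the edgeR p-value leaves out the sampling error of the input. The MIR164 loci, which act on the boundary genes CUC1 and CUC2, lay close together: wt means were 29.2 ± 0.339 RPM at MIR164a, 39.4 ± 2.75 at MIR164b and 37.9 ± 8.31 at MIR164c (SD, n = 2), and brm means 29.8 ± 9.05, 33.9 ± 3.52 and 41.3 ± 5.11.

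MIR160 loci, which target the auxin response factors ARF10, ARF16 and ARF17, were all marked but spread 5.7-fold. MIR160a had 110.2 and 84.5 RPM in wt and 96.6 and 81.8 in brm. MIR160b had 40.3 and 45.9 RPM in wt and 41.2 and 48.2 in brm. MIR160c had 17.6 and 16.5 RPM in wt and 10.01 and 14.8 in brm, near its inputs of 10.6 and 6.69. Only at MIR160c did the genotypes not overlap, with brm lower, and its adjusted p was 0.803. On distinct reads its libraries overlapped.

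The 5 MIR172 loci, which repress AP2-type regulators of flowering, ranged 65.9-fold in wt. MIR172c had 111 and 83.3 RPM in wt and 76.5 and 81.7 in brm. MIR172d had 83.3 and 74.5 RPM in wt and 79.5 and 87.7 in brm. These 2 loci lie far apart on chromosome 3, make the same 21-base RNA and had similar levels. MIR172b had 25.7 and 24.97 RPM in wt and 46.0 and 33.7 in brm, and MIR172a 24.2 and 11.2 in wt and 14.1 and 13.2 in brm. MIR172b was higher in both brm libraries, but its adjusted p was 0.467. It was called higher with the input as offset (1.16, adjusted p = 0.0199), where the input was 12.9 RPM in wt and 8.98 in brm. This p-value, too, leaves out the sampling error of the input. MIR172e carried almost no mark, with 1.52 and 1.44 RPM in wt and 0.521 and 0.714 in brm where the inputs had 12.5 and 12.7.

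MIR159, which silences GAMYB-type MYB genes, showed the same contrast between loci of 1 seed. MIR159c had 54.7 and 56.7 RPM in wt and 46.2 and 56.7 in brm. MIR159b had 6.42 and 5.75 RPM in wt and 6.05 and 5.59 in brm, and MIR159a had 1.75 and 0.994 in wt and 1.67 and 3.33 in brm. The inputs at MIR159a and MIR159b were 9.34 to 13.2 RPM, above every H3K27me3 library, so that MIR159c was the marked locus of the family in both genotypes.

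The MIR390 loci, which start the trans-acting siRNA pathway against ARF3 and ARF4, split in a like manner: MIR390b had 23.2 ± 2.39 RPM in wt and 27.5 ± 0.672 in brm (SD, n = 2) and was marked, whereas MIR390a had 8.71 ± 1.06 and 9.59 ± 4.27 and was not. Of the MIR396 loci, which act on growth-regulating factors, MIR396b had 2.55 ± 3.27 RPM in wt and 2.70 ± 0.456 in brm. MIR396a had 10.06 ± 2.34 and 10.4 ± 2.69 RPM and was marked in brm only. None of the loci of these 8 families passed the edgeR test on all reads with both libraries of each genotype and no input offset. MIR167b was not tested because its counts were too low.

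**Figure D3:**
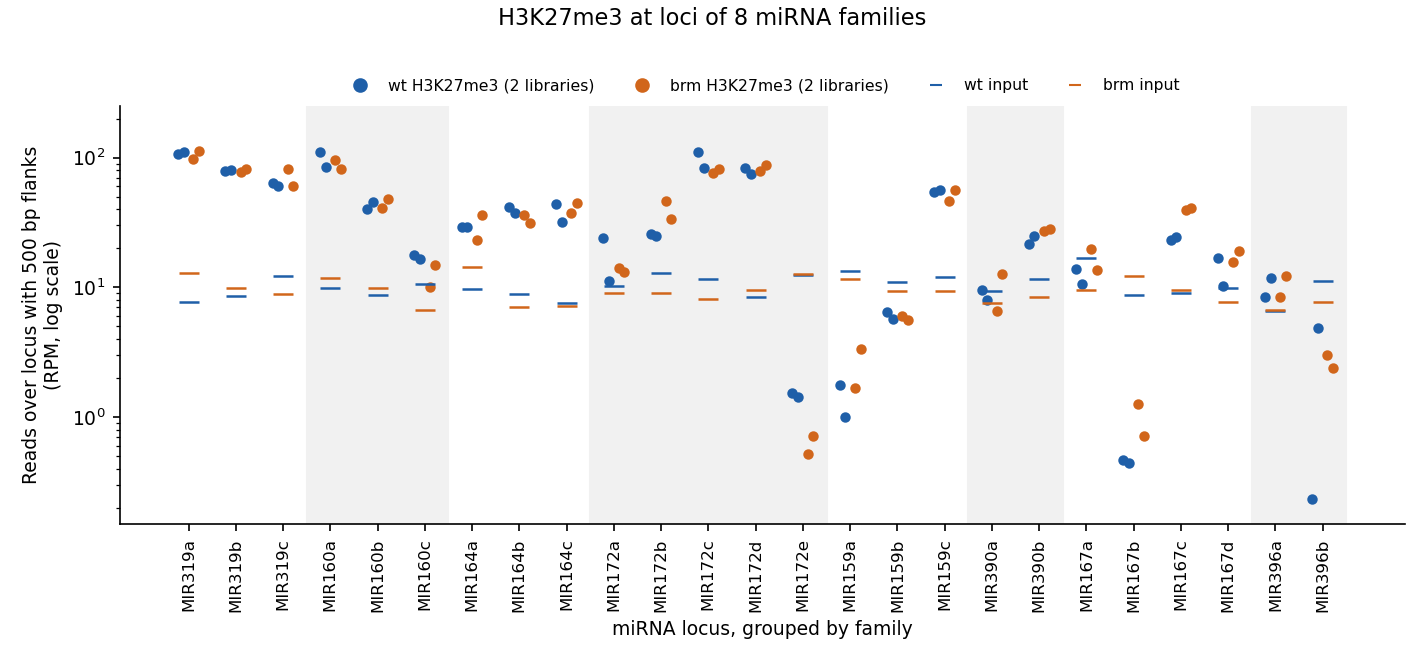
Reads over each locus with 500 bp flanks (RPM, log scale) for the loci of 8 miRNA families; points are single H3K27me3 libraries of wt (blue) and brm (orange), short bars the inputs. MIR319 loci all lie well above the inputs, whereas MIR172e, MIR159a and MIR167b lie below theirs.

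Other families also held both strongly and weakly marked loci. The 14 MIR169 loci ranged from 1.08 to 109.2 RPM in wt, with 11 marked in wt and 12 in brm. Of the 6 MIR399 loci, which keep the phosphate regulator PHO2 low, 4 were marked in each genotype (1.59 to 83.4 RPM in wt), and of the 6 MIR395 loci, which act on ATP sulphurylase genes, 5 carried the mark in wt and 4 did in brm. All 4 MIR157 loci were marked (38.9 to 117.5 RPM in wt). The 3 MIR398 loci, which act on copper/zinc superoxide dismutase genes, were unmarked, with 0.0552 to 1.80 RPM. MIR854, with 5 loci at 0 to 0.331 RPM in wt, cannot be read as unmarked: the median of its windows had 11.3% unique 37-mers. At the 2 MIR5642 loci the inputs held 456 to 643 RPM, against 39.4 to 73.4 RPM in the mean H3K27me3 libraries, and 13.5% and 21.5% of their 37-mers were unique.

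To test whether loss of BRM changed the mark, reads over all annotated nuclear genes with the same flanks were compared between brm and wt by edgeR's quasi-likelihood F test, with Benjamini-Hochberg adjustment over all windows tested. Of 243 miRNA loci with enough reads to be tested, 0 passed an adjusted p of 0.05. Over all windows 0.221% were called higher in brm and 0.159% lower. At an unadjusted p under 0.05, 10 miRNA loci were higher and 12 lower, and the shares over all windows were 4.30% and 4.36%. DESeq2 called 1 locus, MIR5664, higher and 0 lower (all windows: 0.724% and 0.499%), with 10 loci higher and 11 lower at an unadjusted p under 0.05 (all windows: 3.67% and 3.99%). Without wt replicate 1, edgeR called 3 loci higher and 2 lower (all windows: 1.17% and 1.52%), and without wt replicate 2 it called 1 and 4 (all windows: 0.731% and 0.681%). The median log2 fold change over the tested loci was 0.004, beside -0.005 over all windows. Among the 99 loci marked in both genotypes, the median size of the log2 fold change was 0.19. The 2 libraries of 1 genotype differed by a median log2 ratio of 0.24 in wt and 0.19 in brm. Means of 2 libraries vary less than single libraries, so these values are not directly comparable. The change between genotypes exceeded 2-fold at 1 of the 99, MIR5664. By list, the median log2 fold change was 0.02 over development loci, -0.15 over nutrient and copper loci and 0.04 over loci in no list. It was -0.60 over the 5 loci that regulate the small RNA machinery. Over the 3 tested loci of the list of PPR, NB-LRR and MYB regulators and triggers it was -0.09.

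**Figure D4:**
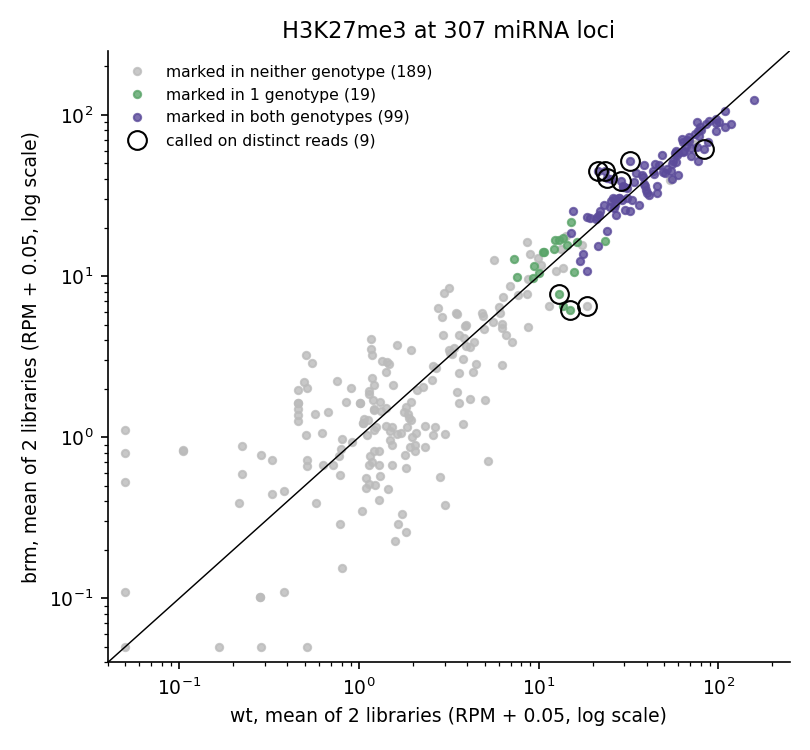
Mean H3K27me3 of the 2 brm libraries against the mean of the 2 wt libraries at 307 miRNA loci (RPM plus 0.05, log scales; line, equality), coloured by marking; circles are the 9 loci called on distinct reads. Loci marked in both genotypes lie close to the line, and unmarked loci scatter at low counts.

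With each position and strand counted once, edgeR called 5 miRNA loci higher in brm and 4 lower, at backgrounds of 1.82% and 1.39% over all windows. A further 148 loci held too few distinct reads to be tested. The median log2 fold change was -0.02 over these loci and -0.02 over all windows. The 5 higher loci were marked in both genotypes, while of the 4 lower ones 1 was marked in both, 2 in wt only and 1 in neither. No call among the 9 held in the test on all reads. In the fit on distinct reads with each library left out in turn, MIR5664 and MIR5026 passed in all 4 cases, MIR863 in 3, MIR850 in 2, MIR868, MIR168b, MIR5012 and MIR399e in 1, and MIR167c in 0. The count of lower calls was 0 without brm replicate 1 and 0 without brm replicate 2. The plot of called loci shows both ways of counting.

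**Figure D5:**
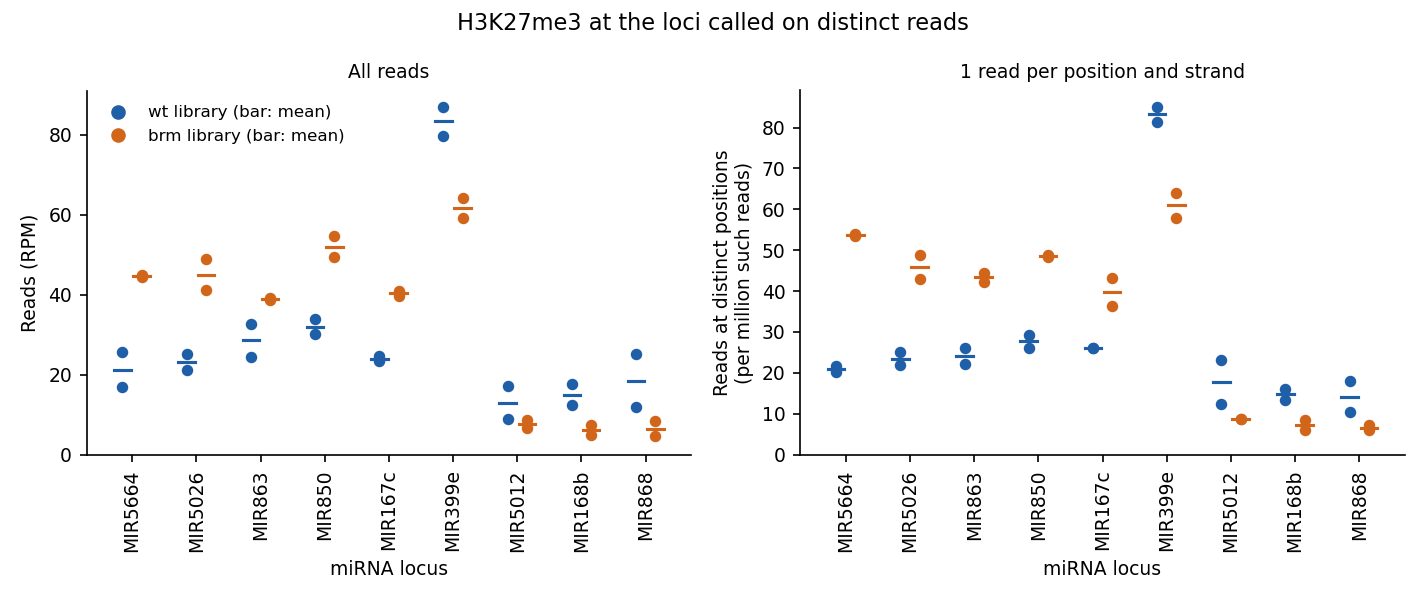
H3K27me3 at the 9 miRNA loci called on distinct reads, as RPM of all reads (left) and as distinct RPM (right); points are libraries, bars means of 2 libraries, blue wt, orange brm. The brm libraries are higher at the first 5 loci and lower at the other 4.

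MIR5664 (chr1:17386795-17387008, plus strand) had the largest increase among the 9 loci called on distinct reads. It had 20.1 and 21.7 distinct RPM in wt and 54.1 and 53.5 in brm, against inputs of 9.61 and 11.5. Both brm libraries were more than 2-fold above both wt libraries. The log2 fold change was 1.36 ± 0.18 (SE, n = 2; edgeR adjusted p = 7.35e-07) on distinct reads and 1.07 ± 0.27 (adjusted p = 0.11) on all reads. The marked region around it measured 9000 bp in wt and 17200 bp in brm. It lies 310 bp from the protein-coding gene AT1G47400, whose own span had 16.5 and 14.0 RPM in wt and 32.1 and 41.4 in brm. Over that span, without flanks, the log2 fold change was 1.26 ± 0.20 on distinct reads (adjusted p = 0.00485) and 1.27 ± 0.31 on all reads (adjusted p = 0.144). On gene spans without flanks, 0.557% of genes were called higher and 0.511% lower with distinct reads, and 0.0777% and 0.0971% with all reads.

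On chromosome 4 the neighbouring loci MIR5026 (chr4:7844496-7844688), MIR850 (chr4:7845707-7845927) and MIR863 (chr4:7846597-7846899), all 3 on the plus strand and inside or partly inside the noncoding RNA gene AT4G13495, were higher in brm. MIR863 encodes an RNA known from the response to the bacterium Pseudomonas syringae. At MIR5026 wt had 21.8 and 25.1 distinct RPM and brm 43.0 and 48.9 (log2 fold change 0.98 ± 0.18, adjusted p = 4.47e-04). MIR850 had 29.3 and 26.0 in wt and 48.9 and 48.2 in brm (0.81 ± 0.17, adjusted p = 0.00274). MIR863 had 26.0 and 22.2 in wt and 42.3 and 44.5 in brm (0.84 ± 0.18, adjusted p = 0.00313). In each of them both brm libraries exceeded both wt libraries, which largely follows from their being called. The windows of MIR850 and MIR863 overlap, and all 3 loci lie in 1 marked region of 21400 bp in wt and 21800 bp in brm, so they are not separate events. On all reads the 3 loci had log2 fold changes of 0.95, 0.70 and 0.44 (adjusted p = 0.156, 0.316 and 0.666), and that of MIR863 was 0.25 without wt replicate 2. AT4G13495 itself (chr4:7842967-7846774), looked up after these values were seen, had 111 and 104 RPM in wt and 180.2 and 180.5 in brm, a log2 fold change of 0.75 ± 0.15 that passed on all reads (adjusted p = 0.0171; DESeq2 adjusted p = 9.79e-04). That call was lost without flanks (0.79, adjusted p = 0.0511), without brm replicate 1 (0.75, adjusted p = 0.338) and without brm replicate 2 (0.75, adjusted p = 0.263).

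MIR167c (chr3:1306622-1306781, minus strand) belongs to the family that represses ARF6 and ARF8, auxin response factors of flower and root development. It had 26.0 and 26.0 distinct RPM in wt and 36.4 and 43.3 in brm, and 23.4 and 24.6 RPM of all reads in wt and 39.6 and 41.0 in brm. The genotypes did not overlap in either count. The log2 fold change was 0.62 ± 0.18 on distinct reads (adjusted p = 0.0482) and 0.75 ± 0.26 on all reads (adjusted p = 0.363). Without flanks the log2 fold change was 0.28 on distinct reads and 0.27 on all reads. The marked region over it measured 800 bp in wt and 2400 bp in brm. It was the only MIR167 locus marked in wt. MIR167a had 13.9 and 10.6 RPM in wt and 19.6 and 13.6 in brm, and MIR167d 16.9 and 10.2 in wt and 15.6 and 18.9 in brm. These 2 were marked in brm only, while their libraries overlapped between the genotypes (adjusted p = 0.825 and 0.874). MIR167b had 0.467 and 0.442 RPM in wt and 1.25 and 0.714 in brm, far below its inputs of 8.67 and 12.2.

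The lower loci held few reads, apart from MIR399e. MIR868 (chr3:6488234-6488426) had 18.0 and 10.4 distinct RPM in wt and 7.36 and 5.91 in brm (log2 fold change -1.12 ± 0.32, adjusted p = 0.0386), with inputs of 11.9 and 8.37 and no mark in either genotype. MIR168b (chr5:18358788-18358911), 1 of 2 loci for the RNA that targets AGO1, had 13.4 and 16.1 in wt and 8.46 and 5.91 in brm (-1.04 ± 0.31, adjusted p = 0.0435). MIR5012 (chr2:8432648-8432796) had 23.1 and 12.3 in wt and 8.83 and 8.71 in brm (-1.03 ± 0.29, adjusted p = 0.0347). At all 3 the brm libraries lay below both wt libraries, which largely follows from the calls. The brm inputs at MIR168b and MIR5012 were 10.6 and 8.37. MIR399e (chr2:14443504-14443612), named after its values were seen, was strongly marked: 85.1 and 81.3 in wt and 63.98 and 57.9 in brm (-0.45 ± 0.13, adjusted p = 0.043). Its window overlaps that of MIR399d, which had 75.9 RPM of all reads in wt and 62.9 in brm and was not called (adjusted p = 0.212 on distinct reads). Without wt replicate 1 the log2 fold change on distinct reads was -0.66 at MIR868 and -0.48 at MIR5012. On all reads these 4 had log2 fold changes of -1.51, -1.28, -0.76 and -0.44, with adjusted p = 0.274, 0.394, 0.698 and 0.491. That of MIR5012 was -0.23 with the input as offset, -0.26 with flanks of 1000 bp and -0.22 without wt replicate 1, and that of MIR868 was -0.86 without wt replicate 1.

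The protein-coding genes within 500 bp of these loci gave no call on their own spans: PMT5, a polyol and monosaccharide transporter, beside MIR868, AT5G45310 beside MIR168b and AT2G19460 beside MIR5012 had adjusted p = 0.827, 0.478 and 0.236 on distinct reads.

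Of the 19 loci marked in only 1 genotype, 0 were called on all reads and 2, MIR168b and MIR5012, were called lower on distinct reads. Over all windows 1.39% were called lower on distinct reads. Marking came from the same reads, and the loci named here were taken by size of the difference. Calls and non-overlap among them are therefore no independent evidence. MIR395f was marked in wt, with 14.4 and 12.9 RPM there and 5.53 and 7.49 in brm, and its genotypes did not overlap (adjusted p = 0.513). MIR866 was also marked in wt, with 23.4 and 23.3 RPM, and had 19.4 and 13.4 in brm (adjusted p = 0.723). Both had inputs of 8.28 to 12.5 RPM, and the fitted sign at MIR866 changed under 5 of 22 alternatives. MIR393a, which represses the auxin receptors TIR1, AFB2 and AFB3, was marked in brm, with 17.8 and 25.5 RPM against 18.3 and 11.7 in wt, where the genotypes overlapped (adjusted p = 0.735). It was called on distinct reads without wt replicate 1 (adjusted p = 0.0268) and with a replicate block (adjusted p = 0.0446). MIR163, whose RNA acts on methyltransferase genes, was marked in brm with 15.3 and 10.2 RPM against 7.47 and 6.96 in wt (adjusted p = 0.652), although its inputs had 16.7 and 12.3. MIR171b, which acts on HAIRY MERISTEM genes, was marked in brm at 54.7% of its length, yet its mean was 10.5 RPM in brm and 15.8 in wt (adjusted p = 0.778). At MIR171b, marking and level thus moved in opposite directions, and its libraries overlapped. The 8 loci marked in wt only had a median of 1.303 times the input in wt and the 11 marked in brm only 1.55 times in brm, close to the level of the input. In the genotype without the mark, the median was 1.307 times the input (brm) for the 8 loci and 1.28 times (wt) for the 11. The genes next to MIR395f and MIR163, AT1G69800 and the DNA ligase gene LIG6, were not called (adjusted p = 0.921 and 0.344 on distinct reads).

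Genes that make miRNAs or are silenced by them were read from the same fit. All 20 listed genes for biogenesis, effectors and trans-acting siRNAs and all 47 listed targets were matched and tested. Of the 20, 0 were marked in either genotype, 0 were higher and 1 was lower in brm, where 0.221% of all windows were called higher and 0.159% lower. That gene was AGO10, an ARGONAUTE of the shoot meristem, which had 40.4 and 41.3 RPM in wt and 8.13 and 14.5 in brm, below its inputs of 57.1 and 55.0. Both brm libraries were far below both wt libraries (log2 fold change -1.86 ± 0.32, adjusted p = 0.0055). Of the 47 targets, 4 were marked in wt (MYB101, CUC2, SNZ and TCP2) and 5 in brm, with SMZ in addition, against 19.9% and 21.3% of all genes, and 2 were higher and 0 lower. SMZ, an AP2-type repressor of flowering targeted by miR172, had 25.6 and 19.6 RPM in wt and 79.0 and 57.1 in brm (1.59 ± 0.24, adjusted p = 0.00125). TCP2, a leaf growth regulator targeted by miR319, had 47.1 and 39.4 RPM in wt and 103 and 90.4 in brm (1.16 ± 0.19, adjusted p = 0.00356). The study had already reported increased H3K27me3 at SMZ and TCP2 in brm from these libraries, so these 2 calls are no independent evidence. With distinct reads, at a background of 1.82%, TCP4 was also called (1.53 ± 0.43, adjusted p = 0.0347), from 1.05 and 2.87 RPM of all reads in wt and 11.2 and 9.51 in brm, all below its inputs of 33.1 and 38.2. The calls of AGO10, SMZ and TCP2 held in 21 of 22 alternatives each and were lost without brm replicate 1 (adjusted p = 0.217, 0.168 and 0.176), and that of TCP4 held in 8 of 22. Of the 8 MIR172 and MIR319 loci 0 were called on all reads or on distinct reads, and 2, MIR319a and MIR172b, were called with the input as offset. Whether the change at loci and at targets differed was not tested.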

How the data were processed

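Per the submitters' notes, the authors mapped reads with Bowtie 0.12.7 and found regions with SICER 1.1. The deposited files list 1 uniquely and perfectly mapped 37 bp read per line, and read counts were taken from these deposited lines without further scaling by the authors.

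Each 5′ end was moved 75 bp inwards and counted over 37899 nuclear genes of the TAIR10.1 RefSeq annotation with 500 bp flanks. Counts were fitted with edgeR 4.0.16 in R 4.3.3 (glmQLFit and glmQLFTest, robust, filterByExpr, total reads as offset, FDR 0.05) in place of ChIPDiff, and SE is the log2 fold change over the square root of F. An exact permutation test of 2 against 2 libraries cannot reach 0.05. Regions were rebuilt after SICER from distinct reads: windows of 200 bp, window p 0.2, gaps of 600 bp, Poisson test against the input of the genotype, FDR 0.01, and bases found in both replicates. The scripts were tested on simulated data.

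Named were loci called on all reads, up to 8 more called on distinct reads, the 6 highest marked in both genotypes, up to 8 marked in 1 genotype by size of the difference, 8 families, MIR167c (which stands in a gene list the study made from these libraries, so that its values are no independent evidence), and protein-coding genes within 500 bp of called or singly marked loci. Loci, lists and tests were chosen with earlier results of these data known. Alternatives were other flanks, distinct reads, TMM scaling, DESeq2 1.42.0, no filter, no shift, no robust estimation, an input offset (pseudocount 0.5 RPM), a replicate block, each library left out, and other limits for regions.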

Additional observations from a re-analysis of the deposited data

How the results depend on the processing

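The count of miRNA loci called higher or lower in brm, 0 and 0 on all reads, was 0 and 0 without flanks, with either TMM scaling, without the low-count filter, without the shift and without robust estimation. It rose to 2 higher with flanks of 1000 bp, 1 higher with DESeq2, 5 higher and 4 lower with distinct reads, and 4 higher and 3 lower with the input offset. The p-values with that offset take the 1 input library per genotype as exact. Leaving out 1 library gave 0 to 3 higher and 0 to 4 lower: 3 and 2 without wt replicate 1, 1 and 4 without wt replicate 2, and 0 and 0 without either brm replicate. With distinct reads, alternatives chosen after seeing the data gave 5 and 3 with TMM over marked genes and 0 and 0 without flanks. Leaving out 1 library there gave 2 to 6 higher and 0 to 5 lower (6 and 3 without wt replicate 1, 4 and 5 without wt replicate 2, 3 and 0 without brm replicate 1, 2 and 0 without brm replicate 2). The causes were not tested. Shares over all windows are given above for all reads and distinct reads, both also without flanks, and for DESeq2. They are also given for all reads without either wt replicate. For the other alternatives no such share is given, so whether their counts are particular to miRNA loci cannot be told. A replicate block gave 1 higher and 0 lower on all reads and 6 and 6 on distinct reads; same-numbered libraries share only a number (r of their deviations 0.069 over 7235 genes).

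The median log2 fold change of the tested loci stayed between -0.058 and 0.064 under every alternative except the input offset (0.075). The counts of marked loci were 99 to 115 in wt and 106 to 117 in brm under all limits tried. With neighbours counted within 1000 bp, 43 neighbouring loci were marked in wt and 42 in brm, in place of 28 and 26. The fitted sign changed under at least 1 alternative at 25 of the 41 named loci that were tested, but in no fit that called the locus. At 64 loci counts were too low for the test, so a change there was not detectable at this depth.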
